A study of Mus musculus with 11 samples.

Results

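The regions described here are the ATAC-seq peaks of unwounded mouse keratinocytes that were listed for only 1 of the genotypes compared, WT or *Grhl3*-cKO (conditional knockout). From each genotype's deposited peak list the 10769 peaks with the largest −log10 p-value were taken, which is the length of the shorter list, that of WT. Peaks on chromosomes X and Y were then left out, and a peak was called shared when at least 1 of its bases lay in a peak taken from the opposite list. The one-list peaks numbered 6589 of 21009 peaks compared, 3267 of them WT-only and 3322 cKO-only. The whole series lists 99479 peaks in 4 ATAC-seq libraries.

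The mice were labelled C57BL/6, with a C57BL/6J background per the study's methods, males and females, 8 weeks old. *Grhl3*-cKO mice carried *Krt14-Cre* and *Grhl3* fl/fl alleles, so deletion is driven in cells that have expressed *Krt14*, and are labelled GRHL3 KO. WT mice were littermates with *Krt14-Cre* and intact *Grhl3*. Keratinocytes were sorted from skin as CD49F-positive cells, with blood and endothelial cells removed by CD45, CD31 and TER119, and 2 mice were pooled for each ATAC-seq library. Each genotype has 1 unwounded and 1 wounded ATAC-seq library, so no difference between genotypes has a replicate check and no test was made. RNA-seq of the same kind of cells comprises 2 WT and 1 *Grhl3*-cKO unwounded libraries, and 2 wounded libraries of each genotype. The number of the unwounded *Grhl3*-cKO RNA library differs between its title and its deposited table, and the title was used. Counts on genes summed to 15488699 and 16807451 for unwounded WT, to 13497283 for unwounded *Grhl3*-cKO and to between 14279568 and 16653948 for the wounded libraries. The study's methods give more than 70000000 reads for each ATAC-seq sample and no depth of single libraries, and depth and genotype cannot be told apart with 1 library per side.

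ATAC-seq marks open chromatin: a transposase inserts sequencing adapters where DNA is not wrapped in nucleosomes, at active promoters and at enhancers. Grainyhead-like factors bind DNA as dimers and are known to hold enhancers of epithelial genes open. GRHL3 acts in the upper epidermis in barrier formation, and in wound closure and neural tube closure, while its relatives GRHL1 and GRHL2 are expressed in the same epithelium. A peak's fold enrichment is its read density over the local background of its own library, and its −log10 p-value is the peak caller's score of that excess. Intervals below are Wilson 95% intervals and cover counting error only, not differences between mice or libraries.

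The genotype was taken from the label. *Grhl3* RNA was at 121 and 80.9 CPM (read counts scaled to the size of the library) in the WT unwounded libraries and 77.8 CPM in the *Grhl3*-cKO unwounded library, and whole-gene counts do not separate the deleted exons. The *Grhl3* gene with its flanks of 10000 bases held no peak in the WT unwounded list. The full *Grhl3*-cKO list held 2 weak peaks there, with fold enrichments of 3.47 in an intron and 3.28 upstream, both below the peaks taken. Open chromatin at the gene therefore did not check the label either. The study reports its own check of deletion in these mice, by quantitative PCR between the *Grhl3* loxP sites and by GRHL3 staining of the wound front. The unwounded *Grhl3*-cKO RNA library differed from the others in sex: *Xist* was at 1123 CPM and the 4 Y-linked genes *Ddx3y*, *Eif2s3y*, *Kdm5d* and *Uty* had 0 counts, which allows up to 0.227 CPM. In the other 6 RNA libraries *Xist* was at 0.174 to 1.91 CPM and the Y-linked genes summed to 165 to 248 CPM. *Xist* and these genes were chosen after their values were seen. In every RNA comparison with that library below, sex and genotype cannot be told apart.

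About 3 in 10 peaks of each list had no partner. The WT-only peaks were 31.1% of the 10495 WT peaks (30.3% to 32.0%), and the cKO-only peaks were 31.6% of the 10514 *Grhl3*-cKO peaks (30.7% to 32.5%). These shares were close to those between any pair of the 4 libraries when all lists were brought to the same length. Of the WT unwounded peaks, 32.1% had no partner in the WT wounded list, and of the *Grhl3*-cKO unwounded peaks 30.0% had none in the *Grhl3*-cKO wounded list. The lowest share, 28.3%, was between unwounded *Grhl3*-cKO and wounded WT, which differ in genotype and in wounding, and the highest, 34.3%, was of *Grhl3*-cKO wounded peaks against unwounded WT. The shares for a change of genotype in unwounded skin thus lay between those for wounding in WT and for wounding in *Grhl3*-cKO. Whether any of these shares exceeds that between replicate libraries was not tested.

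The full lists were of unequal length, and the rule therefore treated them differently. The WT list was taken whole, down to a −log10 p-value of 3.79. The *Grhl3*-cKO list holds 29364 peaks, and the last peak taken had a −log10 p-value of 6.34222 and a fold enrichment of 4.48, against 6.3422 and 4.19 for the first peak left out. The full lists covered 4425198 bases in WT, with a median fold enrichment of 4.18, and 13480879 bases in *Grhl3*-cKO, with a median of 3.996. Of the 3267 WT-only peaks, 2828 (86.6%, 85.4% to 87.7%) touched a *Grhl3*-cKO peak ranked below those taken. There the median fold enrichment was 3.81 in WT and 3.83 in *Grhl3*-cKO, where the rule held the −log10 p-value of the *Grhl3*-cKO peak at or below that of the last peak taken. The other 439 WT-only peaks, 4.18% of the WT list, touched nothing in *Grhl3*-cKO. No cKO-only peak touched any WT peak, which follows from the WT list being whole. Counted over full lists, 95.8% of WT peaks touched a *Grhl3*-cKO peak and 35.0% of *Grhl3*-cKO peaks touched a WT peak.

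One-list peaks were the weaker and narrower peaks of both libraries, which the choice by −log10 p-value favours. The median fold enrichment was 3.79 in WT-only and 4.42 in shared WT peaks, and 4.81 in cKO-only and 5.18 in shared *Grhl3*-cKO peaks. Median widths were 293 and 395 bases in WT, and 370 and 595 bases in *Grhl3*-cKO. With each list divided by −log10 p-value into 4 bands of equal size, weakest first, the WT-only share of the WT list was 60.3%, 39.3%, 21.1% and 3.89%. The cKO-only share of the *Grhl3*-cKO list was 57.1%, 40.2%, 23.6% and 5.44% in the same order. These bands use the value by which peaks were taken, so a fall of the share with strength is in part set by the rule, and 102 WT and 143 *Grhl3*-cKO peaks of the strongest bands were one-list. At the 7228 places where a WT peak was shared, the *Grhl3*-cKO peak had the higher fold enrichment in 84.6% and was wider in 88.5%. The medians at these places were 5.17 against 4.42 for fold enrichment, and 596 against 395 bases for width. Sharing asked a −log10 p-value of at least 6.34222 of the *Grhl3*-cKO peak and of 3.79 of the WT peak, which favours the *Grhl3*-cKO side. At the 2828 WT-only peaks with a *Grhl3*-cKO peak ranked lower, the *Grhl3*-cKO peak had the higher fold enrichment in 46.4%. There the rule held the −log10 p-value of the *Grhl3*-cKO peak to at most 6.34222, which favours the WT side. Both shares are therefore set in part by the rule, and a general difference in strength was not tested.

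Promoters, taken as 1000 bases on either side of a transcription start, were less frequent among one-list peaks than among shared ones, and least frequent among cKO-only peaks. Of WT-only peaks 42.6% lay at promoters (40.95% to 44.3%), and of shared WT peaks 55.9%. Of cKO-only peaks 27.4% did (25.9% to 28.9%), and of shared *Grhl3*-cKO peaks 56.1%. The cKO-only peaks lay instead in introns (34.8%) and between genes (34.0%), places where enhancers are found, against 20.9% and 20.2% of shared *Grhl3*-cKO peaks. For WT-only peaks these shares were 27.6% and 26.2%, and exons held 3.52% of WT-only and 3.73% of cKO-only peaks. With the one-list peaks fixed by the main rule, the promoter share of cKO-only peaks was 26.1% to 28.0% in the 4 bands of strength. Shared peaks of the *Grhl3*-cKO list had 51.1% to 63.8% there. The WT-only peaks absent from the full *Grhl3*-cKO list were like the cKO-only peaks in this respect, with 24.1% at promoters, and those listed lower in *Grhl3*-cKO had 45.5%. So the difference in promoter share between WT-only and cKO-only peaks lay with the WT-only peaks that *Grhl3*-cKO also listed. Stricter cuts redraw the one-list peaks, and with them the cKO-only promoter share was higher. With a fold enrichment of at least 4 it was 37.4%, and the WT-only share was 47.9%. When only the 5000 strongest peaks of each list were taken, the cKO-only promoter share was 41.1% and the WT-only share 49.9%. Shared peaks then had 61.5% in WT and 61.7% in *Grhl3*-cKO. When both full lists were used, WT-only peaks were the 439 absent ones and their promoter share was 24.1%.

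One-list peaks were found on each of chromosomes 1 to 19. The WT-only share was highest on chromosome 11 (40.6%, 36.4% to 44.9%) and lowest on chromosome 14 (24.0%, 19.96% to 28.5%). The cKO-only share was highest on chromosome 10 (37.4%, 33.8% to 41.1%) and lowest on chromosome 7 (28.0%, 24.7% to 31.5%). Chromosome 4 was high on both sides, with 35.9% WT-only and 36.7% cKO-only. A few windows of 1000000 bases held many WT-only peaks, and these were chosen after their values were seen. At chr5:15000001-16000000 (mm10, GRCm38), with *Speer4c* and *Speer4d* of a repeated gene family, 34 of 41 WT peaks were WT-only. At chr1:85000001-86000000, with *Sp100*, *Sp110* and *Sp140*, nuclear body genes induced by interferon, 24 of 26 were WT-only. At chr8:20000001-21000000, among defensin genes, the count was 14 of 23. The full *Grhl3*-cKO list held 44, 37 and 31 peaks in these windows, and the WT-only peaks there had median fold enrichments of 2.49 to 2.70, well below the WT list's 4.18. These windows were therefore open in both lists, though single WT-only peaks in those of chromosomes 1 and 8 touched nothing in the full *Grhl3*-cKO list. A window at chr4:42000001-43000000 with *Ccl19*, *Ccl21a* and *Ccl27b*, chemokine genes in a duplicated stretch, had 10 of 10 WT peaks WT-only and 7 peaks in the full *Grhl3*-cKO list.

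Short words known to be bound by epidermal factors were counted in 500 bases around each peak's middle, on both strands. The AP-1 word TGANTCA, bound by FOS and JUN dimers, was in 43.2% of cKO-only peaks (41.6% to 44.9%), 30.6% of WT-only peaks (29.1% to 32.2%), 31.3% of shared WT peaks and 30.8% of shared *Grhl3*-cKO peaks. It was in 9.25% of the 39599 windows of the same length at the starts of protein-coding transcripts. The order changed when peaks at promoters were set aside: AP-1 words were then in 53.6% of cKO-only, 44.6% of WT-only, 56.8% of shared WT and 56.4% of shared *Grhl3*-cKO peaks. So outside promoters the cKO-only peaks held the word about as often as shared peaks, and WT-only peaks less often. A grainyhead word, AACCGGTT, AACCAGTT, AACAGGTT or AACAAGTT or the reverse complement of one, was in 8.10% of cKO-only peaks (7.22% to 9.07%) and 6.21% of WT-only peaks (5.44% to 7.09%). It was in 6.06% of shared WT peaks, 5.85% of shared *Grhl3*-cKO peaks and 3.79% of the windows at coding starts. Outside promoters these shares were 9.70% in cKO-only, 8.54% in WT-only, 9.72% in shared WT and 9.34% in shared *Grhl3*-cKO peaks, and all of these intervals overlap. Peaks listed for WT only were thus not richer in grainyhead words than shared peaks or cKO-only peaks in these windows. With a window of 200 bases the AP-1 word was in 18.5% of WT-only and 28.6% of cKO-only peaks, and the grainyhead word was in 2.91% of WT-only and 3.82% of cKO-only peaks. The GC box GGGCGG, common in promoters, was in 41.5% of WT-only, 27.4% of cKO-only and 51.2% of shared WT peaks, against 54.5% of coding starts. The CTCF word, searched by name only because its letters are not fixed, was in 1.96% of cKO-only peaks (1.54% to 2.49%), 1.22% of WT-only peaks (0.900% to 1.66%) and 1.05% of shared WT peaks. The median share of G and C in the peak itself was 53.7% in WT-only, 49.8% in cKO-only and 56.4% in shared WT peaks.

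The strongest one-list peak with a grainyhead word on each side shows what such a region looks like. On the WT side it is an intron of *Map2k6*, a kinase of the p38 stress pathway, at chr11:110472184-110472380 (mm10, plus strand), with a fold enrichment of 5.43. It touched a peak of the full *Grhl3*-cKO list and of both wounded lists. On the *Grhl3*-cKO side it lies between genes at chr11:18070962-18071359, with a fold enrichment of 7.20, and both wounded lists held it. Its printed stretch is chr11:18071155-18071354, plus strand. Capitals mark the grainyhead word and the AP-1 word, which stand in the same stretch in both cases. A match of letters is a description of the sequence and does not show that a factor was bound.
Map2k6 intron, WT-only: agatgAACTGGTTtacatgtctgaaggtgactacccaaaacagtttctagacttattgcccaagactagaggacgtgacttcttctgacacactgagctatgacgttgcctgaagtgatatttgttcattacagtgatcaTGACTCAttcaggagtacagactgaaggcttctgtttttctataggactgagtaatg
chromosome 11 intergenic, cKO-only: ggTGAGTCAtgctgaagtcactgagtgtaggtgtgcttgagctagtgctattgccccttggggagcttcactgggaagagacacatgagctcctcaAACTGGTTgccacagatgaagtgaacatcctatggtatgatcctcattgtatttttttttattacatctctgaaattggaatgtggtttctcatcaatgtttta

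Promoter peaks of only 1 list were found at a small part of the protein-coding genes. Of 20780 such genes outside X and Y, 1313 (6.32%) had a WT-only and no shared peak at a promoter, 797 (3.84%) had a cKO-only and no shared peak, 4233 (20.4%) had a shared peak, 32 had separate one-list peaks of both kinds and 14405 had none. The gene lists below are described against these shares, with no test. Over all lists, 33 WT-only peaks lay at promoters of 32 listed genes, and 28 of them touched a peak ranked lower in the full *Grhl3*-cKO list. The 5 that did not were at *Abca12*, *Arid1b*, *Kdr*, *Nr4a1* and *Tfap2a*. The 30 cKO-only peaks at listed genes had fold enrichments of 3.60 to 6.52. Of these, 27 were in both full wounded lists, where 75.8% of all cKO-only peaks were.

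AP-1 subunits and immediate early genes, which cells switch on within minutes of a stimulus, held 7 WT-only promoters among 21 members. That is 33.3%, against 6.32% of all coding genes and 28.6% of 14 housekeeping genes. The 7 were *Fosl2*, *Junb* and *Jund*, which encode AP-1 subunits, and *Egr1*, *Myc*, *Nr4a1* and *Btg2*. Another 4 members, *Jun*, *Atf3*, *Klf2* and *Klf6*, had shared promoter peaks, *Egr2* had a cKO-only one, and 9 had none. At 6 of the 7 WT-only promoters the full *Grhl3*-cKO list had a peak of lower rank, with *Nr4a1* the exception, where 86.6% of all WT-only peaks had one. The fold enrichments of these WT-only peaks were modest, from 2.92 at *Junb* to 3.98 at *Fosl2*, below the WT list's median. The RNA of these genes was not lower in *Grhl3*-cKO. *Egr1* was at 1520 and 1467 CPM in the WT libraries and 3337 CPM in *Grhl3*-cKO, and *Btg2* at 461 and 461 against 1448 CPM. *Fosl2* was at 494 and 392 against 482 CPM. Of the 21 members 20 were higher in the *Grhl3*-cKO library than in both WT libraries, where 36.0% of all 12504 coding genes measured were, and the list's median log2 difference was 0.98. These RNA values are of 1 female library, whose relation to the pooled ATAC-seq library is not given.

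Planar cell polarity genes, which orient cells within the epithelial sheet, had no WT-only and no shared promoter among 17 members. Of all coding genes 3.84% had a cKO-only one, and of these members 4 (23.5%) did. These were the receptor *Fzd6*, its adaptor *Dvl3*, the core component *Prickle2* and the ligand *Wnt5a*, and *Prickle1* had a separate peak of each kind. Fold enrichments at the 4 promoters ran from 4.55 at *Fzd6* to 4.96 at *Wnt5a*, and all 4 peaks were in both full wounded lists. *Wnt5a* RNA was at 9.76 and 11.98 CPM in WT and 18.7 CPM in *Grhl3*-cKO, and *Prickle2* at 70.8 and 58.6 against 110 CPM. *Fzd6* was at 84.6 and 106 against 111.93 CPM, so 3 of the 4 were above both WT libraries, and *Dvl3* was at 58.7 and 52.9 against 55.1 CPM. Over the whole list 5 of 16 members were higher than in both WT libraries and 5 lower, with a median log2 difference of 0.00. Of all coding genes measured 36.0% were higher and 35.1% lower.

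Keratinocyte lists had one-list promoters on both sides, in small counts. The largest shares were those of epidermal transcription factors (17.2% WT-only, 13.8% cKO-only), suprabasal genes (16.7% cKO-only) and wound and stress genes (13.6% cKO-only). Of all coding genes 6.32% had a WT-only and 3.84% a cKO-only promoter. That background is unlike these lists, since 60.2% of it passed the filter on low RNA counts. Of the listed genes 28 of 29, 12 of 12 and 22 of 22 passed, in the order given. Among 15 basal genes, *Dst*, which anchors keratins to hemidesmosomes, was WT-only, *Lama3*, a laminin chain of the basement membrane, was cKO-only, and 2 were shared. Among 12 suprabasal genes *Sbsn* was WT-only, *Calml3* and *Skint3* were cKO-only and none was shared. Among 32 cornified envelope and barrier genes *Abca12*, a lipid transporter of the barrier, was WT-only, *Cers3*, a ceramide synthase, was cKO-only and 4 were shared. Of 22 wound and stress genes *Krt16* was WT-only, *Il24*, *Areg* and *Pmepa1* were cKO-only and 1 was shared. Of 29 epidermal transcription factors 5 were WT-only, among them *Tfap2a*, *Tfap2c*, *Elf3* and *Sox9*, 4 were cKO-only (*Prdm1*, *Pou3f1*, *Sox4*, *Runx1*) and 7 were shared. Among 38 junction genes *Dsg1b* and *Tjp1* were WT-only, *Ctnnd1* and *Dsg3* were cKO-only, and 7 were shared. The *Ctnnd1* peak, at the gene of p120-catenin, had the highest fold enrichment of the cKO-only promoters at listed genes, 6.52, while its RNA was at 341 and 314 CPM in WT and 394 CPM in *Grhl3*-cKO. Grainyhead words lay at the cKO-only promoter peaks of *Skint3* and *Dct*, among others, and at none of the WT-only ones of listed genes.

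Interferon response genes had 4 cKO-only promoters among 20 (20%), *Ifit2*, *Usp18*, *Gbp3* and *Cxcl10*, with *Ifit1* WT-only (5%) and 3 shared. Their RNA was low in all 3 unwounded libraries, summing to 142 and 169 CPM in WT and 144 CPM in *Grhl3*-cKO. Housekeeping genes had 4 WT-only promoters among 14 (28.6%), *Ppia*, *Hsp90ab1*, *Rpl13a* and *Polr2a*, no cKO-only one and 4 shared. Of all coding genes 6.32% had a WT-only and 3.84% a cKO-only promoter. Actin and migration genes had 3 WT-only (*Rhoa*, *Nrg1*, *Itgav*), 2 cKO-only (*Tpm4*, *Itga2*) and 6 shared promoters among 29, which is 10.3% WT-only and 6.90% cKO-only. Chromatin modifiers had 3 WT-only (*Kmt2c*, *Arid1b*, *Ep300*), 2 cKO-only (*Hdac1*, *Crebbp*) and 6 shared among 25, which is 12% and 8%, and 19 inflammation genes had 4 shared and no one-list promoter.

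Markers of other cells, among them the blood and endothelial cells that the sort removed by CD45, CD31 and TER119, had almost no promoter peak in either list. Fibroblast (12 genes), mural and muscle (12), leukocyte (19), Merkel and neural (9) and erythroid (7) markers had none. Of all coding genes 69.3% had none either, as had 73.3% of basal and 75% of suprabasal keratinocyte genes. Lists this small without a promoter peak therefore do not measure the purity of the sort. Endothelial markers had 1 WT-only promoter among 14, at *Kdr*. Melanocyte markers had 1 cKO-only promoter among 9, at *Dct*, and a shared one at *Mitf*. Hair follicle markers had 1 WT-only promoter among 22, at *Sox9*, which is also expressed by keratinocytes. In RNA the fibroblast list summed to 114.5 and 143 CPM in WT and 55.8 CPM in *Grhl3*-cKO, with *Mfap5* at 0 in all 3 libraries. *Fbln1* was most abundant over the 3 libraries together, but in *Grhl3*-cKO it was below *Thy1* (17.8 against 26.6 CPM). The endothelial list summed to 2.42, 4.46 and 0.831 CPM, with *Sox17*, *Cldn5* and *Robo4* at 0. *Pecam1* was most abundant over the 3 libraries together, at 0.0638, 1.33 and 0.302 CPM. *Emcn* was above it in the WT library numbered 1 (0.893 CPM) and *Tek* in *Grhl3*-cKO (0.529 CPM). The leukocyte list summed to 11.8, 25.3 and 11.8 CPM, with 8 members at 0, *Cd3e*, *Cd4*, *Itgax*, *Adgre1*, *Cd79a*, *Ms4a1*, *Ikzf1* and *Gzmb*. *Cd74* was most abundant over the 3 libraries together, but in the WT library numbered 1 it was below *H2-Ab1* (3.96 against 4.40 CPM). Mural and muscle markers summed to 238, 230 and 300 CPM, led by *Cspg4* (129, 117 and 158 CPM) and *Notch3* (103, 106 and 140 CPM), with *Rgs5* and *Myog* at 0. The median log2 difference of that list was −0.84, with 4 of 9 members lower in *Grhl3*-cKO than in both WT libraries and 2 higher, against 35.1% and 36.0% of all coding genes measured. Melanocyte markers summed to 40.6, 38.5 and 60.4 CPM, led by *Mitf*, with *Mlana* at 0. Merkel and neural markers, led by *Mbp*, summed to 56.2, 37.2 and 55.1 CPM with 6 members at 0. Erythroid markers summed to at most 1.21 CPM, with 5 of 9 at 0. *Alas2* led over the 3 libraries together, but in the WT library numbered 2 it was below *Klf1* (0.174 against 0.521 CPM). Against these, *Krt14* alone was at 13161 and 16201 CPM in WT and 13212 CPM in *Grhl3*-cKO, as the label of sorted keratinocytes asks. The part that other cells have in any single one-list peak was not tested.

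Grainyhead genes other than *Grhl3* were open in both genotypes. *Grhl1* had 3 peaks in the WT list, upstream, at the promoter and in an intron, and all were shared. At its promoter the fold enrichment was 4.01 in WT and 5.45 in *Grhl3*-cKO, and its RNA was at 180 and 159 CPM in WT and 211 CPM in *Grhl3*-cKO. *Grhl2* had a shared promoter peak, with fold enrichments of 3.34 and 4.90, and a cKO-only peak in an intron at chr15:37281787-37282058 with a fold enrichment of 4.62. Neither wounded list held that intron peak, and the middle 200 bases of it held no grainyhead or AP-1 word. *Grhl2* RNA was at 158 and 154 CPM in WT and 186 CPM in *Grhl3*-cKO.

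Abundant keratin genes were barely marked by peaks in these lists. *Krt14* and *Krt1* were the most abundant genes of the basal and suprabasal lists in the RNA of both unwounded WT libraries. In *Grhl3*-cKO RNA *Krt5* (13759 CPM) was above *Krt14* (13212 CPM), and *Krt10* (4345 CPM) above *Krt1* (4060 CPM). *Krt14* and *Krt1* had no peak in the WT list and 1 peak each, below the peaks taken, in the *Grhl3*-cKO list. The stress keratins were the reverse, with WT-only peaks at the promoter of *Krt16* (fold enrichment 3.85) and downstream of *Krt17* (chr11:100255665-100255971, fold enrichment 3.63). The full *Grhl3*-cKO list held both places at lower rank, with fold enrichments of 3.97 and 3.58. In the full WT wounded list the *Krt16* peak had a fold enrichment of 5.78, against 3.94 in the *Grhl3*-cKO wounded list. *Krt16* RNA was at 1769 and 1954 CPM in unwounded WT and 1371 CPM in *Grhl3*-cKO, and *Krt17* at 2076 and 1596 against 962 CPM. Reads of *Krt16* and *Krt17* may be shared with each other and with pseudogenes, so these counts are uncertain. *Cdh1*, the gene of E-cadherin, had no peak in the WT list and 4 in the full *Grhl3*-cKO list, 1 of them cKO-only, in an intron at chr8:106619492-106619961 with a fold enrichment of 4.03. Both full wounded lists held it, at 4.16 in WT and 4.34 in *Grhl3*-cKO. *Cdh1* RNA was at 1330 and 1009 CPM in WT and 1243 CPM in *Grhl3*-cKO, so the listing of a peak did not go with a difference in RNA. *Fscn1*, which bundles actin at the leading edge, had no one-list peak: the WT list had none, and the full *Grhl3*-cKO list had 1 below the peaks taken. The middle 200 bases of the *Cdh1* peak are shown because they hold an AP-1 word, in capitals, and no grainyhead word (chr8:106619627-106619826, plus strand).
Cdh1 intron, cKO-only: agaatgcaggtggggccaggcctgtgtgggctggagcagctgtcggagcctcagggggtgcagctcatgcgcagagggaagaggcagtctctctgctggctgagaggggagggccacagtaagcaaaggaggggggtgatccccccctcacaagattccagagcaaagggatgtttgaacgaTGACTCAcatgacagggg

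The epidermal differentiation complex on chromosome 3 had 13 WT and 17 *Grhl3*-cKO peaks at equal length, 2 and 6 of them one-list, where 31.1% and 31.6% of all peaks were. At full length it had 13 and 39, of 10769 and 29364 in the whole lists, with 50 in WT wounded and 36 in *Grhl3*-cKO wounded. The type I keratin cluster had 3 WT peaks, 2 of them WT-only, and 1 *Grhl3*-cKO peak, which was shared. The type II keratin cluster had no WT peak and 1 cKO-only peak, and the 4 Hox clusters had no peak in either equal list. The desmosomal cadherin cluster had 6 peaks in each list, 1 WT-only and 2 cKO-only.

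The strongest one-list peaks were taken as the 15 on each side with the largest −log10 p-value that touched nothing in the full opposite list. The sides cannot be compared directly, since those of WT had to miss a list of 29364 peaks and those of *Grhl3*-cKO a list of 10769. Over all such peaks the promoter shares were alike, 24.1% of 439 on the WT side and 27.4% of 3322 on the *Grhl3*-cKO side. The 15 on the WT side had −log10 p-values of 7.89 to 11.9 and were 198 to 348 bases wide. Of these, 2 were at a promoter, 6 were more than 40% repeat-masked, and 5 were in neither full wounded list. The strongest was in an intron of *Fbxw4* (fold enrichment 6.52, 75.1% masked), followed by an intron of *Dock2* (6.42) and an intergenic peak on chromosome 4 (6.19). The promoter of *Top2a*, the topoisomerase of dividing cells, followed at 5.90. *Top2a* RNA was at 400 and 528 CPM in WT and 196 CPM in *Grhl3*-cKO. Others lay in introns of *Stau2*, *Itgad*, *Agtpbp1* and *Hgsnat*, in *Gm2163*, or were nearest to *Adgrl2*, *Ezh2*, *Fam135b* and *Gm10600*, and the others had no coding gene start within 100000 bases. The 15 on the *Grhl3*-cKO side had −log10 p-values of 13.7 to 17.7, 8 were at promoters, and 13 were in both full wounded lists. Of all 3322 cKO-only peaks 75.8% were in both full wounded lists and 94.0% in that of WT. Promoters among them were those of *Ifnz*, *Gm14305*, *Gm14399*, *Skint4*, *Nubp1*, *Ilf2*, *Gm10717* and *Gm16286* with *Txnl4a*. *Nubp1* encodes an iron-sulfur cluster assembly factor and *Ilf2* an RNA-binding protein, with fold enrichments of 7.77 and 7.62. *Nubp1* RNA was at 32.3 and 33.8 CPM in WT and 19.3 CPM in *Grhl3*-cKO, and *Ilf2* at 57.0 and 44.7 against 33.1 CPM, so neither was higher where the peak was listed. Introns of *Sspn*, *Chd8*, *Osbpl3* and *Tmem231* and places near *Insig1* and *Atp6ap1l* made up the rest, with the intergenic peak of chromosome 11 whose sequence is given. The *Gm10717* peak was wholly repeat-masked and had a fold enrichment of only 1.96.

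The wounded libraries were not used to choose the peaks, and neither side of the one-list peaks followed genotype in them at equal length. Of WT-only peaks 30.7% were in the WT wounded list and 29.2% in the *Grhl3*-cKO wounded list. Of cKO-only peaks 43.6% were in the WT wounded list and 42.5% in the *Grhl3*-cKO wounded list. Shared peaks of WT were there in 84.7% and 82.6%. In each case the list of the opposite genotype held nearly as many as that of the same genotype, or slightly more. With all lists ranked by fold enrichment the WT-only shares were 23.8% in WT wounded and 27.5% in *Grhl3*-cKO wounded, the opposite order. Of WT-only peaks 500 were in the WT wounded list and not in that of *Grhl3*-cKO, and 452 the other way round. For cKO-only peaks the counts were 574 and 540, so more cKO-only peaks were found in wounded WT alone than in wounded *Grhl3*-cKO alone. At equal length the cKO-only regions were thus, more often than WT-only regions, among the strongest open regions of wounded keratinocytes of both genotypes. The rule asked a −log10 p-value of at least 6.34222 of cKO-only and of 3.79 of WT-only peaks, and their medians were 7.30 and 5.25. This contrast between the sides is therefore set in part by the rule. Against the full wounded lists, of 36872 peaks in WT and 22474 in *Grhl3*-cKO, the shares were 91.3% and 73.7% for WT-only and 94.0% and 78.2% for cKO-only peaks. Among the 3174 peaks of the WT wounded list with no partner in the *Grhl3*-cKO wounded list, 15.6% touched a WT-only and 18.02% a cKO-only peak. Among the 3143 peaks of the *Grhl3*-cKO wounded list with no partner in WT wounded, these shares were 14.3% and 17.2%.

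A small set of peaks did follow genotype through both conditions, and it was chosen after the values were seen. Of the 439 WT-only peaks absent from the full *Grhl3*-cKO list, 147 (33.5%, 29.2% to 38.0%) were in the full WT wounded list and not in that of *Grhl3*-cKO, which is the shorter. Another 32 were in the *Grhl3*-cKO wounded list alone, 100 in both and 160 in neither. Of the 3322 cKO-only peaks 80 (2.41%, 1.94% to 2.99%) were in the *Grhl3*-cKO wounded list and not in the longer WT wounded list, and 605 in the WT wounded list alone. The 80 peaks present in both *Grhl3*-cKO lists and in neither WT list included 19 on chromosome 2 (23.8%) and 11 on chromosome 4 (13.8%). Of all 3322 cKO-only peaks 248 and 214 were on these chromosomes, and of the 147 peaks on the WT side 10 and 14.

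On chromosome 2, 17 of the 80 lay in chr2:175000001-177000000, a cluster of genes for zinc finger proteins, and 14 of the 17 were at promoters. Over the full lists that stretch had 5 peaks in WT, 11 in WT wounded, 27 in *Grhl3*-cKO and 25 in *Grhl3*-cKO wounded. The promoters included those of *Gm14305* (fold enrichment 6.77), *Zfp967* (7.09), *Zfp969* (6.34), *Gm14296* (6.02), *Gm14295* (5.98) and *Zfp965* (5.93). These genes are near-identical copies, so the place of a read, and with it of a peak or a count, is uncertain. *Gm14305* had 16 and 0 counts in unwounded WT, 13 and 0 in wounded WT, 19 in unwounded *Grhl3*-cKO and 10 and 0 in wounded *Grhl3*-cKO. *Gm14295* had 104 and 10, 117 and 13, 51, and 62 and 38 counts in the same order. For *Gm14295* the *Grhl3*-cKO libraries, at 2.62 to 4.24 CPM, lay between the WT libraries numbered 1 (6.64 and 6.97 CPM) and those numbered 2 (0.579 and 0.845 CPM).

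On chromosome 4, 7 of the 80 lay in chr4:112000001-114000000, among the *Skint* genes, which encode immunoglobulin-like membrane proteins of keratinocytes and thymus epithelium known from the selection of epidermal gamma-delta T cells. The full lists had 6 peaks there in WT, 11 in WT wounded, 18 in *Grhl3*-cKO and 20 in *Grhl3*-cKO wounded. The promoters of *Skint4* (fold enrichment 7.02) and *Skint3* (5.39) were open in both *Grhl3*-cKO lists and in neither WT list, while *Skint1* and *Skint8* had shared promoter peaks. The promoter of *Skint5*, in the same stretch, went the other way, with a peak in both WT lists (fold enrichment 3.90) and in neither *Grhl3*-cKO list. So did the strongest of the 147 peaks on the WT side, just past the stretch at chr4:114284647-114284866 (fold enrichment 6.19). It lay 121263 bases from the start of *Skint11*. In the whole *Skint* cluster 4 of 10 WT peaks were WT-only and 10 of 16 *Grhl3*-cKO peaks cKO-only, at equal length. *Skint3* had 595 and 0 counts in the unwounded WT libraries numbered 1 and 2, 451 and 0 in the wounded ones of the same numbers, 393 in unwounded *Grhl3*-cKO and 506 and 600 in wounded *Grhl3*-cKO. *Skint4* had 324 and 0, 343 and 0, 622, and 417 and 768 counts in the same order. *Skint9* had 73 and 0, 122 and 0, 104, and 149 and 173 counts, and *Skint11* had 14 and 0, 54 and 0, 22, and 107 and 58. A count of 0 allows up to 0.174 CPM in the unwounded and 0.195 CPM in the wounded WT library numbered 2. For all 4 genes both WT libraries numbered 2 had no read. The *Skint* genes are close relatives in sequence, so reads may be split between them and single counts are uncertain. The WT libraries numbered 1 had 38.0 and 26.9 CPM of *Skint3*, inside the 29.7 to 41.4 CPM of the *Grhl3*-cKO libraries or near it. *Skint3* RNA thus differed within WT, and the WT libraries numbered 1 were near *Grhl3*-cKO. *Skint4* was at 20.7 and 20.4 CPM in the WT libraries numbered 1, below the 47.0 CPM of unwounded and the 28.5 and 53.03 CPM of wounded *Grhl3*-cKO. *Skint1*, with a shared promoter, had 36.2 and 10.5 CPM in unwounded WT and 47.0 CPM in *Grhl3*-cKO. The labels do not say whether the mice of the RNA and ATAC-seq libraries were the same, and genotype and single mice or litters cannot be told apart in the pooled lists. The *Skint3* promoter stretch with its grainyhead word in capitals (chr4:112231831-112232030, plus strand) was chosen after its values were seen.
Skint3 promoter, cKO-only: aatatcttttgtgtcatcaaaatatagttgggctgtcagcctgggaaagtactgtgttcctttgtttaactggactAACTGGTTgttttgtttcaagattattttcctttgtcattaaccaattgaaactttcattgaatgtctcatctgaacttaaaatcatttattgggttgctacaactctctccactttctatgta

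The RNA of genes with one-list promoters did not follow the peaks. RNA values are log2 CPM, and differences are the *Grhl3*-cKO library minus the mean of the WT libraries. The median difference was 0.03 over the 1208 genes with a WT-only promoter that passed the filter on low counts, −0.03 over the 703 with a cKO-only promoter, and 0.00 over all 12504 coding genes and over the 3852 with a shared promoter. Without 1 WT library the medians were 0.00472 or 0.0135 for WT-only and −0.0101 or −0.0595 for cKO-only promoters, so their size depends on that library. The difference between the WT libraries had medians of 0.00 with a WT-only and 0.04 with a cKO-only promoter. Genes at least 2-fold higher in *Grhl3*-cKO than in both WT libraries were 567 (4.53%) of all and those at least 2-fold lower 577 (4.61%). Among genes with a WT-only promoter these counts were 27 (2.24%) and 32 (2.65%), and with a cKO-only promoter 17 (2.42%) and 20 (2.84%), close to the 86 (2.23%) and 116 (3.01%) of genes with a shared promoter. Genes with one-list promoters were mostly expressed: 92.0% of those with a WT-only and 88.2% of those with a cKO-only promoter passed the filter, against 91.0% with a shared one and 46.6% with none. One-list peaks at promoters therefore marked expressed genes about as often as shared peaks did, whichever genotype listed them.

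Gene lists moved in RNA apart from their promoter peaks. The median log2 difference was −0.96 over 22 wound and stress genes, 15 of them lower in *Grhl3*-cKO than in both WT libraries, where 35.1% of all coding genes measured were, although 3 of the 4 one-list promoters of that list were cKO-only. *Il24*, a cytokine with a cKO-only promoter, was at 3.76 and 2.37 CPM in WT and 0.453 CPM in *Grhl3*-cKO, and *Areg*, a growth factor, at 74.8 and 147 against 100.97 CPM. *Krt6a*, another stress keratin with no promoter peak in the lists taken, was at 512 and 1597 against 326 CPM, a wide spread within WT. Basal genes had a median of 0.21, with 10 of 15 members above both WT libraries and 2 below. Suprabasal genes had a median of 0.35 and went both ways, with 6 of 12 members above both WT libraries and 5 below. Of all coding genes measured 36.0% were above and 35.1% below. *Krt10* was at 2440 and 2272 against 4345 CPM, and *Calml3* at 122 and 103 against 67.0 CPM. The medians were 0.13 for cornified envelope genes, 0.16 for epidermal transcription factors, 0.08 for junction genes, −0.23 for actin and migration genes, 0.08 for chromatin modifiers, 0.01 for housekeeping genes, −0.10 for interferon response genes, 0.03 for inflammation genes and 0.09 for hair follicle markers. With 1 *Grhl3*-cKO library, these differences have no replicate check.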

How the data were processed

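ATAC-seq of pooled keratinocytes gave 1 peak list per condition. Per the study's methods, the authors trimmed reads with Trimmomatic, aligned them with bowtie2 to mm10 and called peaks with MACS2. The deposited lists are in the broad peak format, and the names of 3 of the 4 say that no control was used. Each deposited peak carries a fold enrichment, its read density relative to the surrounding background. It also carries a deposited −log10 p-value, with a −log10 q-value beside it, both scored within the peak's own library. The deposited RNA-seq values are unnormalized counts, as whole numbers, for each gene symbol. The study's methods and the labels name FastQC and kallisto for the RNA reads, and do not say how the deposited count tables were made. The 5 tally entries of each table, 4.80% to 6.11% of reads, were left out.

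Peaks were ranked by −log10 p-value, then fold enrichment and position, and compared by overlap of at least 1 base. Genes and places followed GENCODE vM21 (basic transcripts), and sequence GRCm38. A peak touching 1000 bases on either side of a transcription start was at a promoter, otherwise in an exon, an intron or between genes. Motifs were searched in 500 bases about the peak's middle. Overlap counting was tested on simulated peaks. RNA counts were scaled with edgeR's TMM, filtered by filterByExpr over all 7 libraries and turned into log2 CPM with a prior count of 2. No test was made, since each side has 1 pooled library and *Grhl3*-cKO has 1 unwounded RNA library.

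Named are the 15 strongest one-list peaks per side that touch nothing in the full opposite list, genes of the 21 lists with one-list promoters, the genes *Grhl1*, *Grhl2*, *Grhl3*, *Krt14*, *Krt1*, *Krt17*, *Fscn1* and *Cdh1* with flanks of 10000 bases, the most abundant gene of each marker list, and the strongest one-list peak per side with a grainyhead word. Members, lists and rules were chosen with earlier results of these data known. *Krt6a*, *Krt10* and other genes outside this rule were chosen after their values were seen. Alternatives changed ranking, list length, overlap, joining, thresholds, X and Y, promoter distance, motif window, normalization (DESeq2 size factors), prior count, filter and WT library.

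Software was R 4.3.3 with edgeR 4.0.16 and DESeq2 1.42.0, samtools 1.23.1, and Python 3.11.15 with pysam 0.24.0, scipy 1.17.1, pandas 2.3.3 and numpy 2.4.6.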

Additional observations from a re-analysis of the deposited data

How the results depend on the processing

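Of 91 alternative values, 49 were called inside and 42 outside. Inside meant within the 95% interval of the main value for shares, and within 1.5 times the main count for counts. For RNA it meant a change below the standard deviation of the WT unwounded libraries' median log2 CPM in that promoter class. With cKO-only promoters these medians were 4.695 and 4.694, so even small changes were called outside. Promoter shares were lower in one-list than in shared peaks in all 28 comparisons made, over both lists and every alternative of ranking, length, overlap, joining, threshold, X and Y and promoter distance. With full lists 4.18% of WT and 65.0% of *Grhl3*-cKO peaks were one-list, because the lists differ in length. Ranking by fold enrichment gave 35.8% and 36.0%, the 5000 strongest peaks 34.3% and 34.5%, and a fold of at least 4 gave 33.2% and 33.6%.

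The promoter share of WT-only peaks was 44.9% when ranked by fold enrichment, 49.9% among the 5000 strongest, 24.1% with full lists, 45.5% with a q of at most 0.01 and 47.9% with a fold of at least 4. That of cKO-only peaks was 41.1% among the 5000 strongest, 31.4% with that q and 37.4% with that fold. Promoters of 500 bases gave 39.8% and 25.2%, and of 2500 bases 47.5% and 32.0%. The share of WT-only peaks in the full *Grhl3*-cKO list was 82.6% with 50% overlap and 88.3% when ranked by fold enrichment.

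For WT-only peaks, the full wounded lists held 91.3% (WT) and 73.7% (*Grhl3*-cKO), and ranking by fold enrichment gave 23.8% and 27.5%, which turns the order of the genotypes. For cKO-only peaks the full lists held 94.0% and 78.2%, and ranking by fold enrichment gave 45.4% in WT. Median RNA differences without 1 WT library were 0.00472 to 0.0135 for genes with a WT-only promoter and −0.0595 to −0.0101 for those with a cKO-only promoter. The latter was −0.0313 with DESeq2 size factors and −0.00871 with no filter. The cause of these shifts was not tested. Peaks in both lists of 1 genotype were 197 and 140 on the WT side, and 89 and 81 on the *Grhl3*-cKO side, with 50% overlap and with peaks within 500 bases shared, alternatives chosen after seeing the data. The zinc finger stretch held 17 and the *Skint* stretch 7 of the latter in each. No paired analysis was possible because each side has 1 pooled ATAC-seq library.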
